A study of Gasterosteus aculeatus with 62 samples.

Results

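The comparison set the diencephalon of male threespined sticklebacks (Gasterosteus aculeatus) that had been shown a female against that of males shown empty cages. It used 15 of the 62 libraries of the series, 8 from courtship males and 7 from control males, taken by the region and treatment letters in the library titles. Every male had built a nest in a tank supplied with sand and algae before its trial. A courtship male then faced a caged, live, gravid female, and a control male faced cages with nothing in them. For single genes, values are also given for 8 predator males (a caged model trout with odour cues) and 8 tradeoff males (a gravid female and a model trout, with no odour cue named in the labels). The telencephalon of the same 15 males is used in the same way. Brains were taken 1 hour after the trial, each library came from 1 region of 1 male, and all libraries were sequenced in the same lane. Neither strain nor age is given in the sources used here.

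A nesting stickleback male courts with a zigzag dance and leads the female to his nest. The diencephalon contains the hypothalamus, thalamus and habenula. In vertebrates the hypothalamus governs the pituitary and through it the gonads, and it takes part in sexual, feeding and stress behaviour. Messenger RNA of activity-dependent genes can change within the first hour after a stimulus, while slower hormone-driven changes may come later. The region was sequenced whole, so a smaller number of cells of a type and less RNA per cell cannot be told apart in these values.

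Depth, the sum of counts in gene models, was 29015173 to 38117273 reads in the courtship libraries and 26573730 to 47691444 in the control libraries. Gene symbols were sought in 1 reference annotation of 52177 entries. Of the 22295 gene models in the files, 0 could be matched to it, which does not mean that the genes have no names. For lack of a match, genes are given by identifier, with no role or position, and marker genes of the diencephalon could not be looked up. In their place a regional index was computed, the mean log2 level of genes high in telencephalon minus that of genes high in diencephalon. It was -1.17 to -0.98 in the 15 diencephalon libraries and 0.66 to 2.52 in the telencephalon libraries of the same males. Its genes were chosen on libraries of the series, these included, so that separation is built in.

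No gene passed an adjusted p of 0.05 between courtship and control males by edgeR's quasi-likelihood test, 0 of 18942 genes tested (0%), and the smallest adjusted p was 0.778. At an unadjusted p under 0.05 there were 860 genes, 4.54% of those tested, which is fewer than the 947.1 that make up 5%. Of these, 352 were estimated higher in courtship males (1.86% of the genes tested) and 508 lower (2.68%). The split was nearly even without courtship male 7 (420 higher and 438 lower) or control male 15 (477 and 519). Without control male 12 it was 248 and 331. With each male left out in turn, 51.0% (courtship male 7) to 61.3% (courtship male 21) of such genes were lower. Voom with sample quality weights also called 0 genes, with 903 at an unadjusted p under 0.05. DESeq2 called 7 genes (0.037%), described further on, with 899 at an unadjusted p under 0.05.

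The fold changes were small for most genes and their errors were small as well. The median absolute log2 fold change was 0.07 and the median standard error 0.10 over all 18942 genes. For 88.4% of genes the whole 95% interval lay within 2-fold in either direction, for 77.2% within 1.5-fold and for 57.8% within 1.25-fold. Precision followed the number of reads. Among the 2094 genes with a mean over 100 CPM (read counts scaled to a common library total, with TMM factors), 97.8% had an interval within 1.5-fold and 92.9% within 1.25-fold. Among the 9612 genes at 10 to 100 CPM the share within 1.5-fold was 95.9%, and among the 5272 genes at 1 to 10 CPM it was 62.8%. The 1964 genes under 1 CPM had a median standard error of 0.45, and 1.93% had an interval within 1.5-fold. For 29.9% of these rarest genes the interval lay within 2-fold, so for most of them a 2-fold difference in at least 1 direction stayed inside the interval or at its edge. Whether depth or the spread between males set this width was not tested. CPM depends on transcript length, and the bins serve to describe precision.

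**Figure D1:**
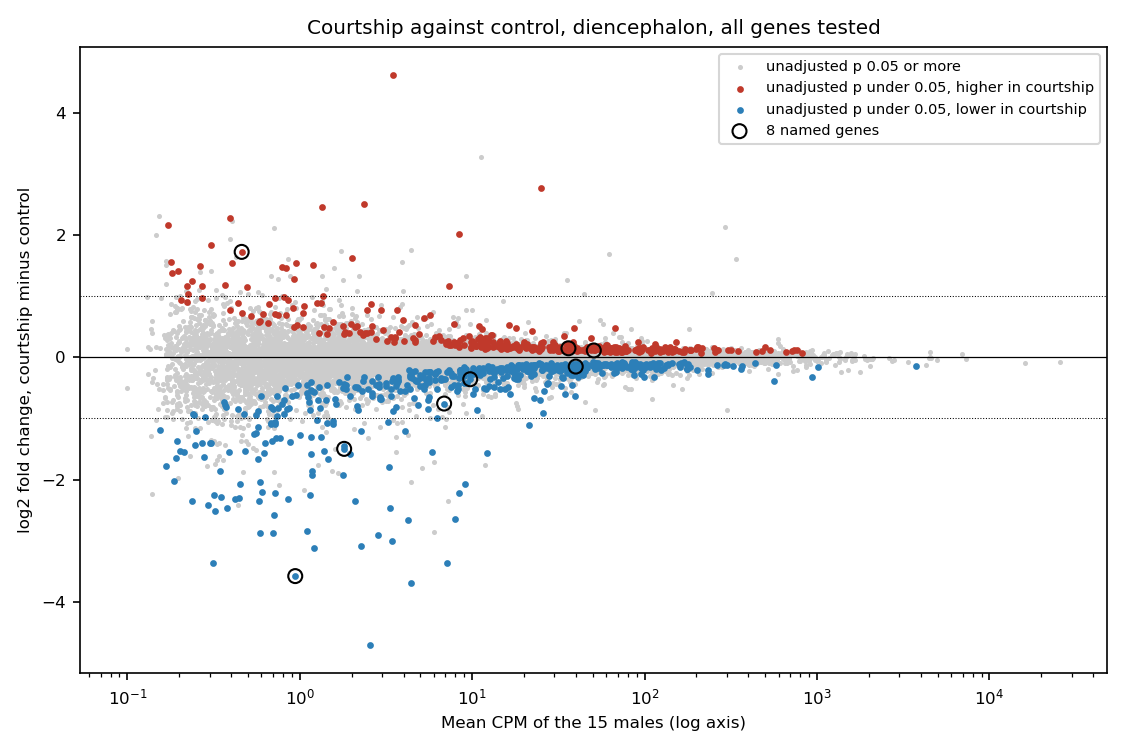
Each point is 1 of the 18942 genes tested in the diencephalon, by its mean CPM over the 15 males (log axis) and its log2 fold change, courtship minus control. Red and blue points have an unadjusted p under 0.05, 352 higher and 508 lower in courtship males, dotted lines mark 2-fold and circles mark the 8 genes named in the text.

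In 5 genes the courtship and control males did not overlap at all. In 2 genes (0.0106% of those tested) every courtship male lay above every control male, and in 3 genes (0.0158%) every courtship male lay below. Of these 5, ENSGACG00000017975 was also among the smallest p, and the other 4 were named after their values had been seen. None of the 5 passed the adjusted threshold, and they are shown for their values in each male, not as changed genes. Their estimated differences were all under 2-fold, and that of 1 gene was over 1.5-fold.

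ENSGACG00000017975 was one of the genes with every courtship male above the controls. Its lowest, median and highest level was 36.1, 38.0 and 38.9 CPM in the 8 courtship males and 32.9, 34.0 and 35.9 CPM in the 7 control males. The groups were separated by a narrow gap, and courtship male 32 lay below the other 7. On the log2 scale the difference was 0.15 with a standard error of 0.0401, and edgeR gave an adjusted p of 0.961. With the model trout present the order was the other way round, with 33.7 CPM in tradeoff males (SD 2.24, n = 8) and 35.3 in predator males (SD 1.82, n = 8). Between those groups edgeR gave a log2 difference of -0.07, tradeoff minus predator (SE 0.0387), and an adjusted p of 0.986.

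ENSGACG00000008993, the other gene of this kind, had 50.87, 52.7 and 54.9 CPM as the lowest, median and highest courtship values. The control values were 46.0, 49.0 and 50.86 CPM. The lowest courtship male, male 35, and the highest control male, male 12, were almost level, so the separation rested on a very small gap. edgeR estimated 0.11 for courtship minus control on the log2 scale (SE 0.0429), at an adjusted p of 0.961. Predator and tradeoff males averaged 52.2 (SD 3.12, n = 8) and 51.4 CPM (SD 3.93, n = 8), both nearer to the courtship mean of 52.6 (SD 1.49, n = 8) than to the control mean of 48.7 (SD 1.66, n = 7).

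ENSGACG00000009724 had the largest fold difference of the 5. Courtship males had 3.28, 5.03 and 7.46 CPM as the lowest, median and highest value, and control males 7.72, 8.46 and 11.8 CPM. Among the controls 6 of 7 were under 9 CPM, and male 20 stood above them. This came to a log2 difference of -0.76 by edgeR (SE 0.213), with an adjusted p of 0.961. Predator males spread over both ranges, from 4.59 to 16.6 CPM, and tradeoff males ran from 7.09 to 14.6 CPM, with a mean of 9.02 (SD 2.38, n = 8) that was close to the control mean of 8.79 (SD 1.36, n = 7).

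ENSGACG00000000835 had every courtship male below the controls as well, with 6.22, 8.67 and 10.45 CPM against 10.46, 11.1 and 12.0 CPM in controls. The controls lay close together, whereas the courtship males were spread, and male 21 almost reached the lowest control. On the log2 scale the difference was -0.36 with a standard error of 0.135, and edgeR gave an adjusted p of 0.961. Predator males averaged 11.1 CPM (SD 0.966, n = 8), near the control mean of 11.0 (SD 0.50, n = 7). Tradeoff males ranged from 5.87 to 16.2 CPM, beyond the courtship and control males on either side.

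ENSGACG00000018610 had 35.2, 38.0 and 40.65 CPM in courtship males and 40.70, 42.3 and 43.2 CPM in controls. Courtship male 7 and control male 4 were the pair that nearly met. edgeR estimated -0.15 for courtship minus control on the log2 scale (SE 0.0579), at an adjusted p of 0.961. Predator males covered the whole span of both groups, from 34.0 to 46.2 CPM.

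The separation of these genes depended on how the libraries were scaled. With size factors by relative log expression, 3 of the 5 still had groups that did not overlap, 1 higher and 2 lower. With CPM that carried no scaling factor, 1 of the 5 did, a gene that was lower.

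**Figure D2:**
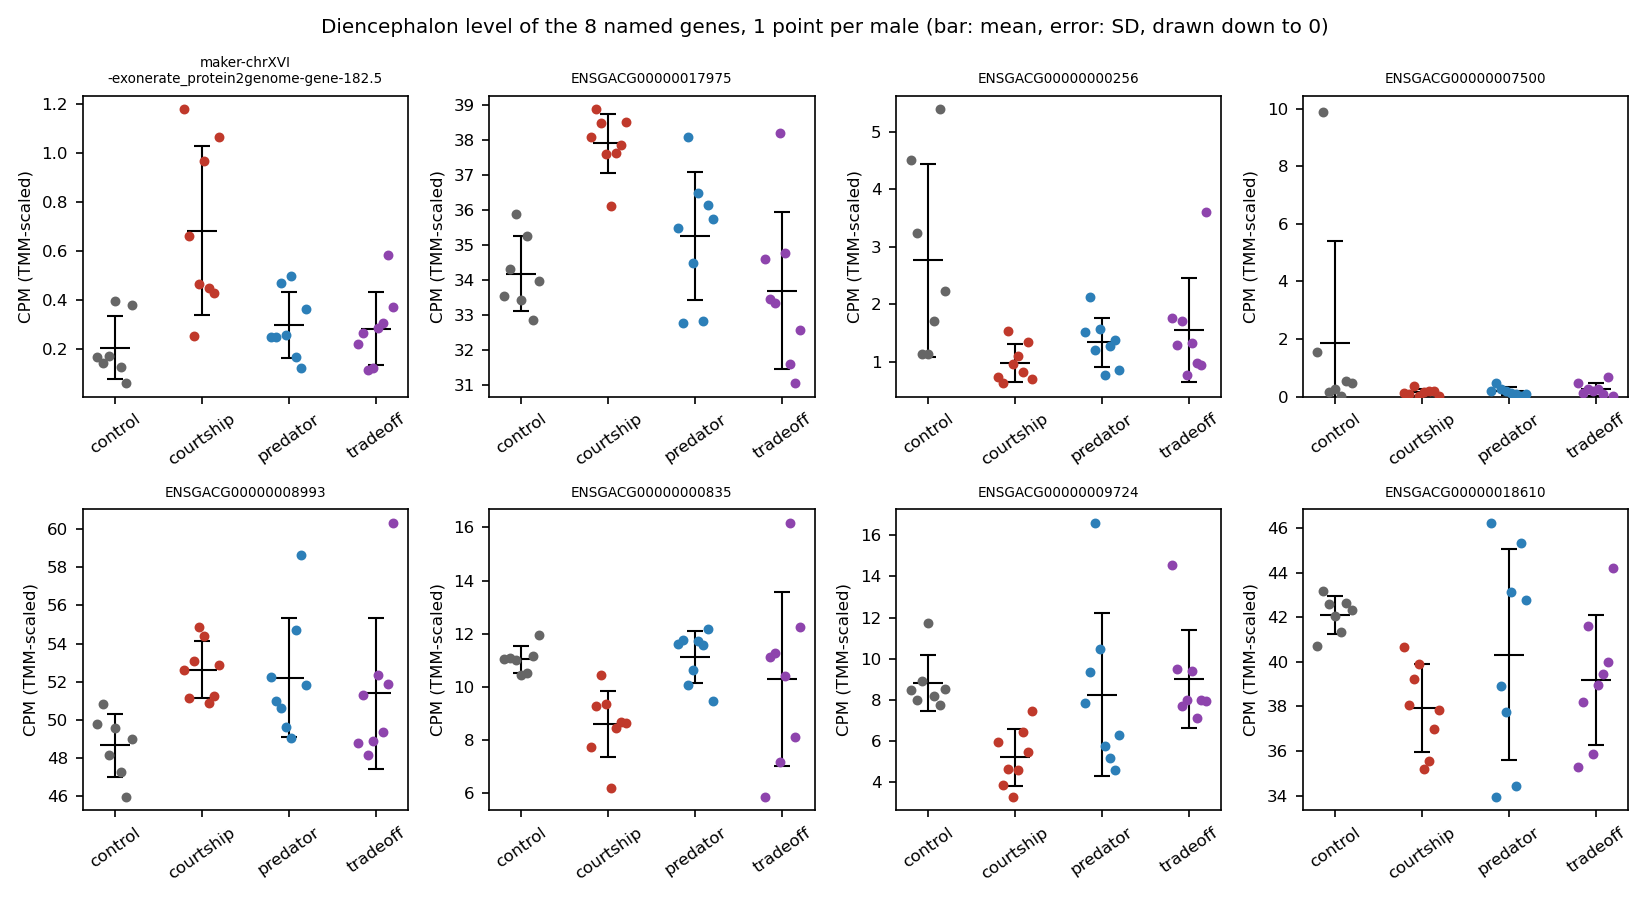
Level in the diencephalon (TMM-scaled CPM, vertical axes that do not all start at 0) of the 8 named genes in each of the 31 males by treatment, with the group mean and SD. In the second panel and the bottom row, which hold the 5 genes without overlap, every courtship point lies on 1 side of every control point, while predator and tradeoff points reach into both ranges.

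The genes with the smallest p included changes of larger size in genes with few reads. ENSGACG00000000256 had the smallest p of all. It had 0.627, 0.891 and 1.53 CPM as the lowest, median and highest value in courtship males, and 1.13, 2.24 and 5.39 CPM in controls. The courtship males were all low, and the control mean was raised by males 30, 4 and 12, at 5.39, 4.51 and 3.24 CPM. Control males 15 and 20 (1.14 and 1.13 CPM) lay within the courtship range. This came to a log2 difference of -1.50 by edgeR (SE 0.334), with an adjusted p of 0.778, and of 0.0259 by DESeq2. Without control male 12 it was -1.46 (SE 0.349), with an adjusted p of 1.00 by edgeR and 0.422 by DESeq2. Predator and tradeoff males had 1.33 (SD 0.429, n = 8) and 1.55 CPM (SD 0.907, n = 8), between the courtship mean of 0.974 (SD 0.324, n = 8) and the control mean of 2.77 (SD 1.68, n = 7).

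ENSGACG00000007500 had the second smallest p, and the size of its difference depended on 1 library. Control male 12 had 9.87 CPM (277 reads) and control male 4 had 1.57 CPM (56 reads). The other 5 controls had 0.0211 to 0.551 CPM, beside 0.0267 to 0.356 CPM in the 8 courtship males. On the log2 scale the difference was -3.58 with a standard error of 0.823, and the adjusted p was 0.778 by edgeR and 0.0224 by DESeq2. Without control male 12 it was -1.73 (SE 0.655), with an adjusted p of 1.00 by both tools. In predator and tradeoff males it stayed at or under 0.474 and 0.699 CPM.

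Among genes estimated higher in courtship males, maker-chrXVI-exonerate_protein2genome-gene-182.5 had the smallest p. It is a model made by the MAKER annotation pipeline from a protein alignment. Courtship males had 0.254, 0.562 and 1.18 CPM as the lowest, median and highest value (10 to 42 reads) and controls 0.0613, 0.168 and 0.395 CPM (2 to 14 reads). Of the 8 courtship males, 7 lay above the highest control, and male 21 lay within the control range. edgeR estimated 1.73 for courtship minus control on the log2 scale (SE 0.413), at an adjusted p of 0.778 by edgeR and 0.116 by DESeq2. Predator and tradeoff males averaged 0.297 (SD 0.135, n = 8) and 0.283 CPM (SD 0.149, n = 8), close to the control mean of 0.206 (SD 0.129, n = 7) and under the courtship mean of 0.683 (SD 0.344, n = 8). The second smallest p on this side was that of ENSGACG00000017975, described above.

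Larger differences were mostly toward lower levels in courtship males. Beyond 2-fold at an unadjusted p under 0.05 there were 87 genes lower (0.459% of those tested) and 28 genes higher (0.148%). Most were rare transcripts, with 49 of the 87 and 19 of the 28 under a mean of 1 CPM. In 45 of the 87 lower genes the highest control value was that of male 12. Male 30 and male 40 held the highest value in 10 genes each, and the other 4 controls in 3 to 7 each. A single male gave more than 50% of the summed control level in 42 of the 87 genes, and of the summed courtship level in 6 of the 28 higher genes. The 28 higher genes were shared out more evenly, with 0 to 7 genes peaking in any courtship male.

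**Figure D3:**
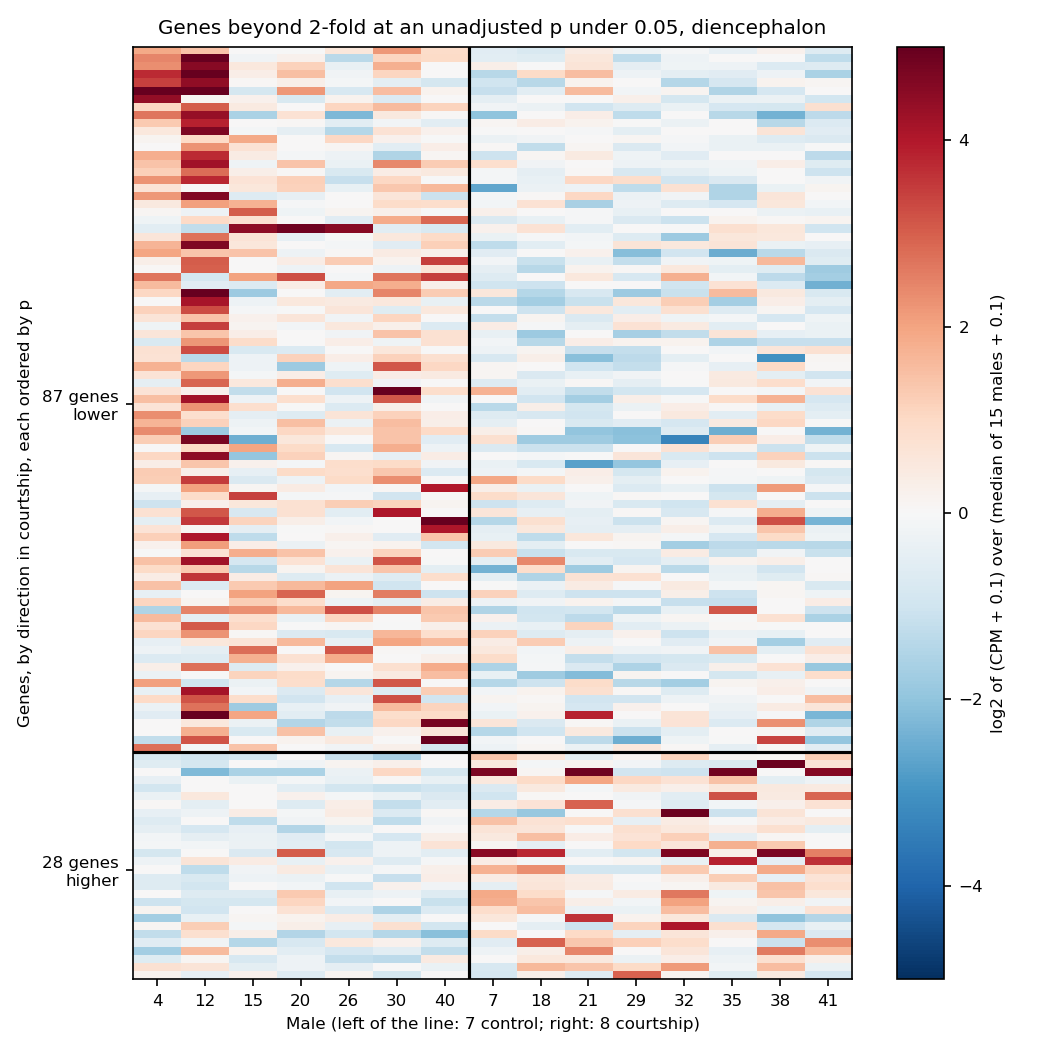
Level of the 115 genes beyond 2-fold at an unadjusted p under 0.05, as log2 of CPM (plus 0.1) over the median of the 15 males, with 1 row per gene and 1 column per male. Red cells gather in the column of control male 12 among the 87 lower genes, and are spread over the courtship males among the 28 higher ones.

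In the 45 genes, control male 12 had a median of 10.9 times the median of the other 6 controls (range 2.12 to 56.4 times). In 40 of them it was the highest of all 31 diencephalon libraries. The 45 genes were chosen on these same values for a control peak in male 12, so high ratios are built in. The telencephalon of the same male showed the pattern too. Of the 41 genes tested there, male 12 was the highest of the 7 control telencephalons in 27, with a median over the 41 genes of 7.55 times the other controls. The share of all genes tested in which male 12 was the highest control is not given here. These counts therefore cannot be called particular to the genes listed. Fitted without male 12, 46 of the 87 lower genes and 27 of the 28 higher genes were still beyond 2-fold at an unadjusted p under 0.05. The total number of lower genes of this kind was then 53 and that of higher genes 38. The library of male 12 also had the highest share of reads aligned to several places among the 15 (13.5%, against 6.23% to 12.7% in the others) and a depth of 27953044 counts. The part of these measures in the result was not tested.

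All 7 genes that DESeq2 called were beyond 2-fold, 6 lower and 1 higher in courtship males. In 5 of the 6 lower genes control male 12 was the highest control and gave 59.7% to 76.4% of the control sum. The calls changed when single males of either group were left out. In the DESeq2 fits without a control male, 18 to 30 genes received no adjusted p. That number was 0 with all males and without any courtship male. The fits without a control thus differ from the full fit in more than the missing male. DESeq2 called 0 genes without control male 12 (600 at an unadjusted p under 0.05), and also 0 without control male 4 (960) or courtship male 7 (885), 29 (769) or 41 (940). It called 2 to 9 genes without any of 9 other males, and in these 9 fits no more genes were higher than lower. Without control male 20 it called 22, with 15 higher and 7 lower, so the direction of the calls also changed with the male left out. The adjusted p of the 7 genes was 0.422 to 1.00 without male 12, but 0.0546 to 0.359 over the other 4 fits with no call. By edgeR all 7 still had an unadjusted p under 0.05 without male 12. The 1 higher gene was high in some males and near 0 in others. It lay at 11.1 to 13.6 CPM in 4 of the 8 courtship males and at or under 0.396 CPM in the other 4. All 7 controls were at or under 0.858 CPM, 2 of 8 tradeoff males were at 11.9 to 15.6 CPM, and the highest of the 8 predator males had 1.25 CPM. Its log2 fold change was 4.62 by edgeR with an adjusted p of 0.961.

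No measure of the libraries as a whole separated the groups after adjustment. Over 11 such measures the smallest p was 0.0629 and the smallest adjusted p 0.458 (two-sided exact permutation test over all 6435 ways to assign the males). That smallest p belonged to the first principal component, which held 15.99% of the variance of log2-CPM over the 15 libraries. Its mean was -10.7 in courtship males and 12.2 in controls. With each male left out in turn, on the same scores, the permutation test gave an unadjusted p of 0.0203 to 0.142. Courtship males lay at -31.1 to 17.4 on this component and control males at -22.3 to 61.0, and the end of the control range was male 12. Male 12 was also the highest on the second component (45.8), which held 11.7% of the variance. Courtship males 7, 18, 32 and 38 lay together with control male 20 at 15.0 to 19.6 on the second component, while the other 9 libraries apart from male 12 lay at -26.5 to -1.24. The other 4 courtship males thus lay with 5 of the 7 controls.

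**Figure D4:**
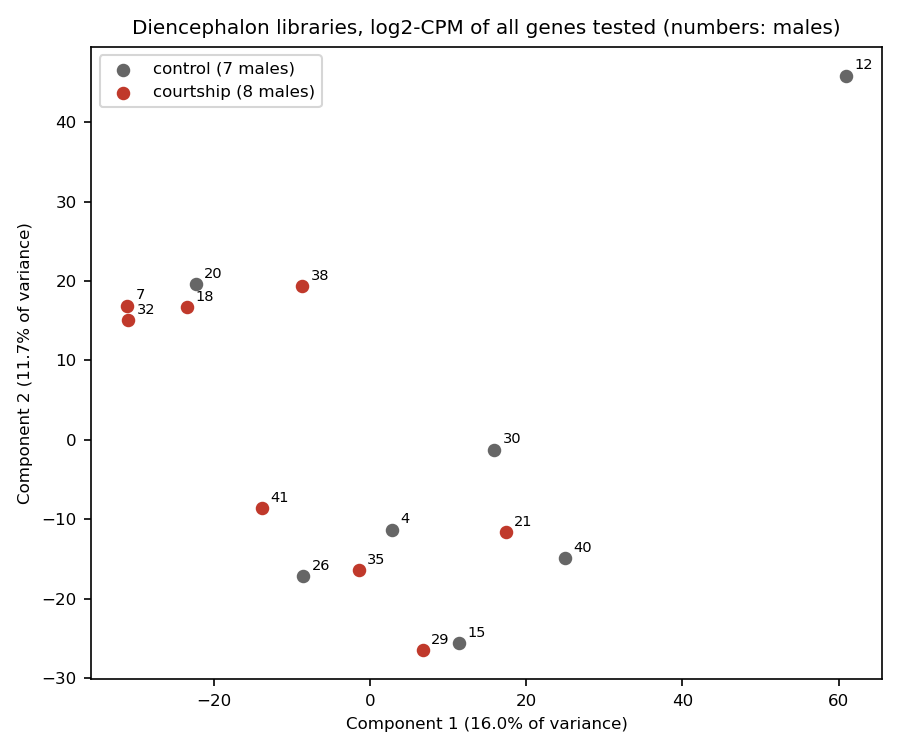
First and second principal component of log2-CPM in the 15 diencephalon libraries, numbered by male. The ranges of courtship (red) and control (grey) males overlap on both components, and control male 12 lies apart at 61.0 and 45.8.

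Depth, the share of reads in gene models, the number of genes detected, the share of the 50 most abundant genes and the share of Y chromosome models had p values of 0.225 to 0.898. The regional index averaged -1.05 in courtship males (SD 0.0520, n = 8) and -1.09 in controls (SD 0.0680, n = 7), a difference with an exact permutation p of 0.175. Control libraries differed among themselves slightly more than courtship libraries, with mean correlation distances of 0.0302 and 0.0265 (exact permutation p = 0.472). Without control male 12 the distances were 0.0267 and 0.0265 (exact permutation p = 0.889). Gene by gene, over the 16978 genes of at least 1 CPM, the SD of log2-CPM was higher in controls for 56.4%. Without male 12 it was higher in controls for 45.01%, so the side of the wider spread turned on that library.

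Leaving out any 1 of the 15 males gave 0 called genes by edgeR in every case. The number at an unadjusted p under 0.05 ran from 579 without control male 12 to 1085 without control male 26. Of the 860 genes, 446 stayed under 0.05 without male 12, and 587 to 697 did so without any other male.

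A gravid female was also shown to the 8 tradeoff males, together with the model trout, while the 8 predator males saw the trout alone. These 16 males share no library with the courtship comparison. The labels name odour cues for predator males and none for tradeoff males, so the female and the cue cannot be told apart in this contrast. In tradeoff against predator males 888 genes had an unadjusted p under 0.05 (4.69%). Of the 860 genes of the courtship comparison, 525 (61.0%) had the same sign there, against 57.4% of all genes tested. Among genes of at least 10 CPM the shares were 66.3% and 60.3%. Both conditions, an unadjusted p under 0.05 and the same sign, were met by 44 of the 860 genes (5.12%), against 3.16% of all genes. Genes are not independent replicates, the spread was estimated jointly, and these shares are a description.

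Of the 8 named genes, 2 had the same sign in tradeoff against predator males, ENSGACG00000000835 and ENSGACG00000018610. The 95% interval held 0 in all 8. The difference between the contrasts, tradeoff minus predator against courtship minus control, had adjusted p values of 1.00 for all 8 by edgeR, with unadjusted p values from 0.000554 to 0.198. The 8 genes were chosen for the courtship difference, which is one of its terms, so these values are given as a description.

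**Figure D5:**
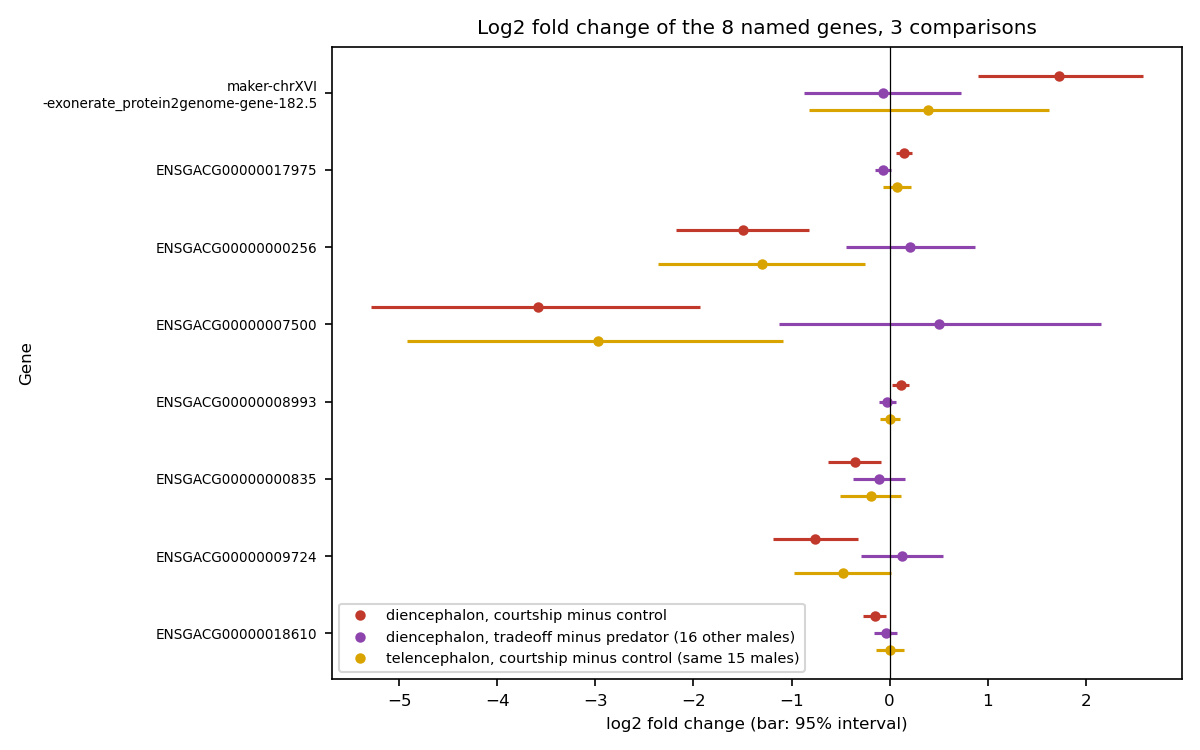
Log2 fold change with its 95% interval in the 8 named genes for courtship minus control in the diencephalon (red), tradeoff minus predator in the diencephalon of 16 other males (purple) and courtship minus control in the telencephalon of the same 15 males (yellow). The purple intervals all include 0, and the yellow ones exclude it for ENSGACG00000000256 and ENSGACG00000007500.

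In the telencephalon of the same males 7 of the 8 named genes had the same sign. Because both regions come from the same animals, this is not independent of the diencephalon. ENSGACG00000000256 differed by -1.30 on the log2 scale there (SE 0.518), at an adjusted p of 1.00 by edgeR. It had 0.833 CPM in courtship males (SD 0.332, n = 8) and 2.06 in controls (SD 1.59, n = 7). Its groups overlapped, with 0.219 to 1.22 CPM in courtship males and 0.219 to 4.30 in controls. Control males 30, 4 and 12 were again the highest, at 4.30, 3.66 and 2.96 CPM. ENSGACG00000007500 differed by -2.98 (SE 0.939), also at an adjusted p of 1.00 by edgeR, and control male 12 was again the highest, at 7.64 CPM. ENSGACG00000009724 differed by -0.48 (SE 0.242), again at an adjusted p of 1.00 by edgeR, and its groups overlapped, with 1.91 to 7.31 CPM in courtship males and 4.06 to 8.94 in controls. The remaining 5 genes had log2 fold changes of 0.39 or less in size, each with an interval that held 0.

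The difference between the regions in the courtship effect was tested directly. The first fit, of all 62 libraries, had no term for the male and so took both regions of a male as independent. No gene passed in it by edgeR (0 of 19321), and 394 genes had an unadjusted p under 0.05 (2.04%). With the male as a replicate block, in the 30 libraries of courtship and control males, 0 of 18895 genes passed and 824 had an unadjusted p under 0.05. Both counts lay under a share of 0.05 of the genes tested. DESeq2 and voom were fitted to all 62 libraries, again with no term for the male. They took both regions of a male as independent, and DESeq2 called 6 genes (0.0311%) and voom 0. All 8 named genes had an adjusted p of 1.00 by edgeR without the block and of 0.987 with it. Their unadjusted edgeR p was 0.0503 to 0.772 without the block. With the block it was 0.0121 for ENSGACG00000008993, 0.0134 for maker-chrXVI-exonerate_protein2genome-gene-182.5 and 0.0147 for ENSGACG00000018610. The other named genes had 0.186 to 0.388. All were chosen for the diencephalon difference, which is one of the terms, so these values are a description.

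The identifiers separate the gene models into 3 kinds. Of the 657 Y chromosome models, 472 could be tested, 9 were higher and 11 lower in courtship males at an unadjusted p under 0.05 (4.24%), and their median log2 fold change was -0.0028. Of the 833 other MAKER models, 312 could be tested, with 5 higher and 3 lower (2.56%) and a median of 0.02. Of the 20805 models with Ensembl identifiers, 18158 could be tested, with 338 higher and 494 lower (4.58%) and a median of -0.0026, against -0.0023 over all genes. Reads aligned to several places are in no gene's count, so values of models with a close copy, Y chromosome models among them, are uncertain.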

How the data were processed

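The authors deposited 1 table per library with whole-number, unnormalized counts for each gene model, and the tally lines below the genes were dropped. STAR and HTSeq are named in the submitters' processing notes. Their versions, the genome build, the annotation and whether counting used strand: none is given in the sources used here, so reads of overlapping antisense models cannot be assumed to be separated. Members, gene choices and tests were settled with earlier results of these data known.

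All 31 diencephalon libraries were fitted in 4 treatment groups with edgeR 4.0.16 in R 4.3.3 (filterByExpr with a minimum count of 10 and a minimum total of 15, TMM scaling, robust glmQLFit, glmQLFTest), and p-values were adjusted by Benjamini-Hochberg over 18942 genes, threshold 0.05. Intervals are 95% intervals of the log2 difference between group means, with the spread between males as the source of their error. The standard errors are not an edgeR output. They were computed from the unshrunk log2 difference and the F statistic of the quasi-likelihood test. Intervals are centred on that unshrunk difference, so the printed edgeR fold changes can lie slightly off their centre. Named genes were those with the 2 smallest p in each direction. The genes without overlap were added after their values were seen. DESeq2 1.42.0 and voom (limma 3.58.1) were alternatives, as were other scalings, filters, sample sets and leaving out each male. The regional index used 500 genes a side with a mean log2-CPM above 3. Its genes were chosen without the telencephalon library of predator male 42. That library was kept in the telencephalon fit and in the fits of all 62 libraries. Titles number the males, so libraries with 1 number come from 1 animal. Departures from the group mean log2-CPM correlated at 0.193 to 0.574 between the regions of a male, and at -0.0273 on average between males. The labels name no batch for single libraries.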

Additional observations from a re-analysis of the deposited data

Results flagged for a closer look

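In 5 of 38 groups of values checked (8 genes and 11 library measures, each in control and courtship males), 1 library stood far from the rest of its group. For independent, normally distributed values about 1 in 20 groups is marked in this way by chance. The genes here were chosen for their values and the measures share libraries, so that rate is only a guide. Control male 12 had 9.87 CPM of ENSGACG00000007500, where the other 6 controls had 0.0211 to 1.57 CPM. Its mean correlation distance to the other controls was 0.0390, where theirs were 0.0264 to 0.0303. Control male 20 had 11.8 CPM of ENSGACG00000009724, against 7.72 to 8.90 CPM. Courtship male 32 had 36.1 CPM of ENSGACG00000017975, the lowest of its group, against 37.6 to 38.9 CPM. Control male 15 had 47.3% of its tallied reads in gene models, against 43.0% to 44.6% in the other controls. The part of these libraries in the results was not tested beyond the values without each male.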

How the results depend on the processing

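By edgeR and voom the count of called genes was 0 under every alternative run. DESeq2 called 7 with all males and 0 to 22 with each male left out, where the fits by DESeq2 and voom without single males were chosen after seeing the data: 0 without control 4 or 12 or courtship 7, 29 or 41, 2 without courtship 18, 3 without courtship 32 or 35, 6 without control 15 or 30, 7 without courtship 21 or control 26, 9 without courtship 38 or control 40, and 22 without control 20. The number of genes at an unadjusted p under 0.05 was 587 in the fit of all 62 libraries and 1086 with no expression filter, and 579 to 1085 with each male left out by edgeR (600 to 1142 by DESeq2). The number of genes whose groups did not overlap was 5, and 3 with size factors by relative log expression, 2 with unscaled CPM, and 7 to 16 with each male left out, where a group short of 1 male can only gain such genes. For the region difference, DESeq2 with no term for the male called 6, and edgeR with the replicate block called 0. The cause of DESeq2's region calls was not tested. Of 303 values of the 8 named genes under 38 alternatives, 0 changed sign and 20 passed the threshold, all with DESeq2. These genes were chosen on the same males, and most alternatives left out 1 male, so a change of sign was hardly possible. None of the 11 library measures passed after adjustment with any male left out or with the 500 most variable genes. Genes under 1 CPM had the largest median standard error of the 4 level classes.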
